A study of Mus musculus with 10 samples.

Results

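The genes described here encode enzymes that degrade DNA: 7 genes of the 22740 in the deposited table of protein-coding counts. They are the DNase I-like genes Dnase1, Dnase1l1, Dnase1l2 and Dnase1l3, the lysosomal gene Dnase2a, and the exonuclease genes Trex1 and Trex2. They were chosen by symbol, around Dnase1l3, because its counts were lower in the Grhl3 KO libraries of these same data. All values of Dnase1l3 between the genotypes are therefore a description without a test. Of the 7 genes, 5 passed the filter on low counts and 2, Dnase1 and Trex1, stood at 0 in every library.

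The study sequenced poly(A) RNA from the oesophagus of C57BL/6 mice given 4-NQO (4-nitroquinoline 1-oxide), a carcinogen that induces squamous tumours of the upper digestive tract, to ask what loss of the epithelial transcription factor Grhl3 changes. The groups were 5 mice labelled Grhl3 knockout (Grhl3 KO, libraries 1026, 1027, 1035, 1036 and 1043) and 5 labelled wild type (libraries 1028, 1048, 1528, 1555 and 1561), and both groups received 4-NQO. The labels call the Grhl3 KO tissue tumour and the wild-type tissue only oesophageal tissue, while the series design text speaks of tumours from both, so a difference in tissue and one in genotype cannot be told apart. The series title speaks of conditional knockouts and the table's Grhl3 KO columns carry "L2Cre"; the promoter that drives this Cre, the age and the sex of the mice are not stated in the labels.

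Dead and shed cells leave DNA behind, and each compartment has its own enzyme for it. Secreted DNase I-like enzymes digest free and chromatin-bound DNA outside cells, the acid enzyme DNase II digests engulfed DNA in lysosomes, and the TREX exonucleases remove DNA ends inside the cell. In stratified epithelium DNA breakdown is also a step of cornification, in which a keratinocyte destroys its own nucleus. Undigested DNA can be sensed by cGAS and STING in the cytosol or by TLR9 in endosomes, which start interferon responses.

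Several facts of the libraries touch every result. Each library held between 15.3 and 32.9 M counts, with M the SI prefix mega. Grhl3 itself stood at 222 ± 66.8 CPM in Grhl3 KO mice, against 207 ± 112 CPM in wild-type mice (SD over 5 mice a group), where CPM is the count divided by the TMM-scaled size of its library in M, and the log2 difference was 0.11 (SE 0.35; adjusted p = 0.979 in edgeR), so the whole-gene counts did not set the genotypes apart. The squamous marker Krt5 stood at 9679 ± 1757 CPM in Grhl3 KO mice, against 11377 ± 1507 CPM in wild-type mice. Counts of 4 Y-linked genes summed to 162 to 203 CPM in Grhl3 KO, against 154 and 177 CPM in wild-type libraries 1028 and 1048, but to 0.0527, 0.0539 and 72.3 CPM in wild-type libraries 1528, 1555 and 1561. These last 3 libraries also carry sample numbers far from the rest, a number series that holds no Grhl3 KO library. Neutrophil markers summed to 7838 to 11779 CPM in Grhl3 KO mice, against 3161 to 23334 CPM in wild-type mice, and B and plasma cell markers to 1.26 to 6.79 CPM in Grhl3 KO, against 0.527 to 96.5 CPM in wild type, the highest being wild-type library 1028. S100a8 and S100a9, which squamous epithelium also expresses, made up nearly all of the neutrophil sum. Their means were 4409 and 6077 CPM over all libraries. Ly6g, Elane, Mpo, Camp and Ngp averaged 0.0158, 0.00527, 0.215, 0.0265 and 0.0418 CPM. The remaining genes of the list, Ltf, Padi4, Csf3r, Cxcr2 and Retnlg, averaged 145, 24.5, 11.3, 10.7 and 1.89 CPM. The sum thus mostly follows S100a8 and S100a9 and does not measure neutrophils. Fibroblast markers (5 of 7 higher in fitted level) summed to 231 to 698 CPM in Grhl3 KO, against 298 to 508 CPM in wild type. Squamous markers (7 of 9 lower) summed to 43052 to 56902 CPM in Grhl3 KO, against 39852 to 97715 CPM in wild type. There were 0 genes of these 4 lists called by edgeR, DESeq2 or limma voom, beside 11, 118 and 1 of all 13731 genes tested. At an unadjusted edgeR p under 0.05 there were 0 as well, beside 7.16% of all genes. The part of these cells in the results was not tested. The 14 skeletal muscle genes measured all had higher fitted levels in Grhl3 KO, with summed levels of 738 to 5342 CPM there and 1248 to 2733 CPM in wild type. Of these, 0 passed the test in edgeR or with either other tool, or at an unadjusted p under 0.05, beside the same shares of all genes.

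Dnase1l3 encodes a secreted DNase that digests DNA wrapped in nucleosomes and in the vesicles of dying cells; in mice it comes mostly from dendritic cells and macrophages, and its loss causes lupus-like disease. The gene (ENSMUSG00000025279) lies on chromosome 14, 7964533 to 7994573 on the minus strand in GRCm38, with 9 merged exons. The Grhl3 KO libraries 1026, 1027, 1035, 1036 and 1043 held 3.59, 5.12, 3.41, 3.62 and 3.10 CPM. The wild-type libraries 1028, 1048, 1528, 1555 and 1561 held 17.02, 9.16, 12.9, 20.9 and 26.4 CPM. Every Grhl3 KO library lay below every wild-type library, and wild-type library 1048 came closest.

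Means were 3.77 ± 0.783 CPM in Grhl3 KO mice, against 17.3 ± 6.75 CPM in wild-type mice (SD over 5 mice a group), a log2 fold change (Grhl3 KO minus wild type) of −2.19 (SE 0.28), or 4.56-fold lower. Groups without overlap were found for 1.35% of the 13731 genes tested, 0.787% with Grhl3 KO higher and 0.568% with it lower, and since this pattern chose the gene nothing is read from it. The log2 fold change was −2.21 without wild-type libraries 1528 and 1555 and −1.79 without libraries 1528, 1555 and 1561. Spread differed between the groups as well: the highest library was 1.65 times the lowest in Grhl3 KO and 2.89 times the lowest in wild type.

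**Figure D1:**
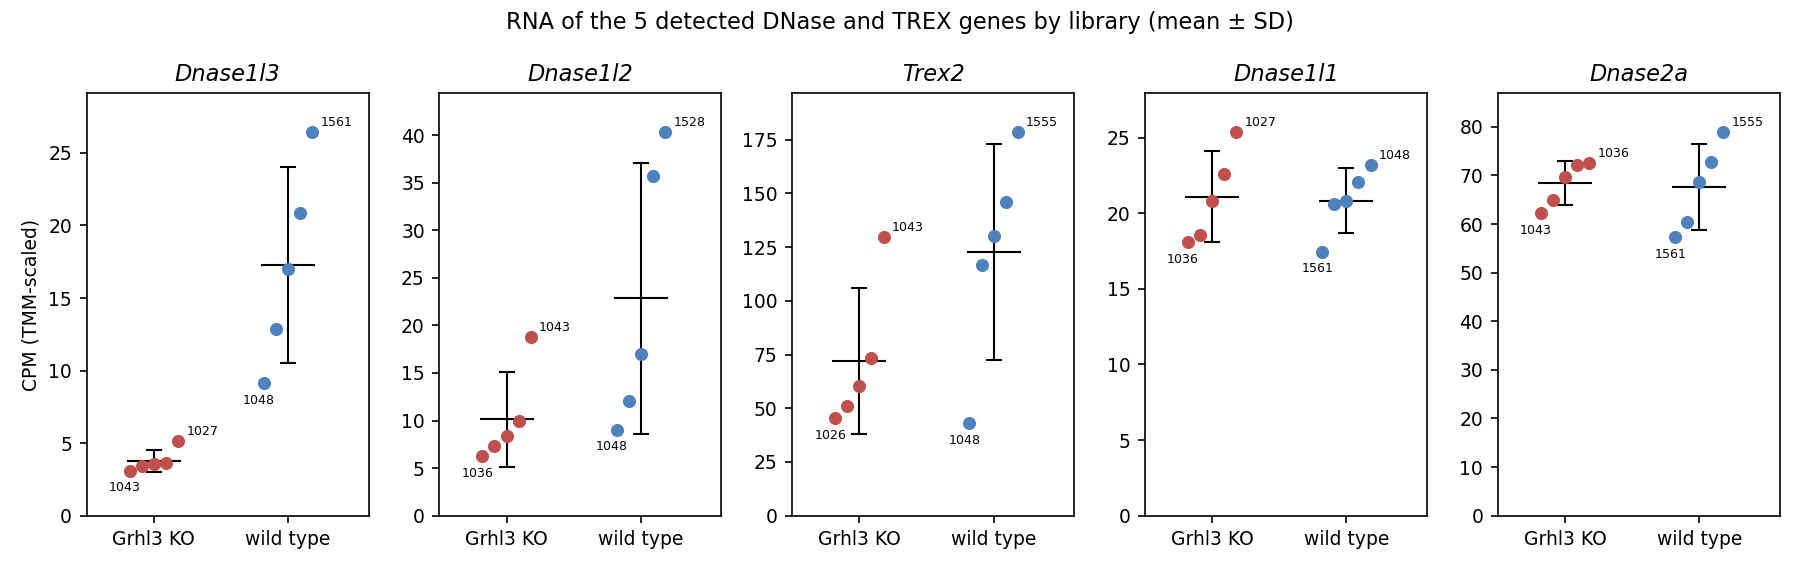
TMM-scaled CPM (vertical axes, each from 0) of the 5 detected genes in Grhl3 KO (red) and wild-type (blue) libraries, 1 point per mouse, with the mean and SD in black and the highest and lowest library of each group named. The groups separate for Dnase1l3, with 3.10 to 5.12 CPM in Grhl3 KO mice, against 9.16 to 26.4 CPM in wild-type mice, and overlap for the other 4 genes.

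In bulk tissue, fewer cells of a type and less RNA per cell cannot be told apart, so the markers of the cells that make DNase1L3 are given beside it. The 13 dendritic cell markers summed to 31.7 to 53.1 CPM in Grhl3 KO mice, against 25.1 to 103 CPM in wild-type mice, and the ranges overlapped. Of the 11 markers tested, 3 had higher and 8 lower fitted levels in Grhl3 KO, with a median log2 fold change of −0.24 against −0.00 over all genes tested. In edgeR, DESeq2 and limma voom 0 passed, beside 11, 118 and 1 of all 13731 genes. At an unadjusted edgeR p under 0.05 there were also 0, beside 7.16% of all genes. In a list this short, 0 calls at such shares do not show unchanged markers. The wild-type library with the most Dnase1l3, 1561 at 26.4 CPM, had the lowest dendritic cell sum of all 10 libraries, 25.1 CPM, and the wild-type library with the highest sum, 1028 at 103 CPM, held 17.02 CPM of Dnase1l3. No marker of the list stood at 0 throughout, although Xcr1 and Clec9a, which mark cross-presenting dendritic cells, did not exceed 0.315 CPM in Grhl3 KO mice, against 1.08 CPM in wild-type mice.

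The 11 measured macrophage markers summed to 170 to 245 CPM in Grhl3 KO mice, against 164 to 229 CPM in wild-type mice. Fitted levels were higher for 8 of 10 tested genes, with a median log2 fold change of 0.12. EdgeR, DESeq2 and limma voom called 0, beside 11, 118 and 1 of all 13731 genes. At an unadjusted edgeR p under 0.05 there were also 0, beside 7.16% of all genes. Lyz2, the lysozyme of myeloid cells, spanned 74.1 to 117 CPM in Grhl3 KO mice, against 83.0 to 105 CPM in wild-type mice. The 12 endothelial markers summed to 278 to 310 CPM in Grhl3 KO mice, against 248 to 378 CPM in wild-type mice. With the dendritic cell markers as a covariate, added after the data were seen, the Dnase1l3 log2 fold change was −2.18. Its within-group r with these markers was −0.03 over 10 libraries, so the covariate could move the value little. The part of dendritic cells in the difference was not tested.

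Within the groups, no relation of Dnase1l3 to these lists passed the test over all libraries, but the value for the dendritic cell markers depended on which libraries were used. After the group means were removed, its log2 CPM had a Pearson r of −0.03 with the dendritic cell markers (Spearman rho 0.16; permutation p = 0.944 and 0.656), 0.04 with the macrophage markers (rho −0.01; permutation p = 0.905 and 1) and −0.00 with the endothelial markers (rho 0.01; permutation p = 0.990 and 1), over 10 libraries. Leaving out the 2 libraries farthest from each list's median gave r of 0.43, 0.13 and 0.17. Within the 7 libraries numbered 1026 to 1048, r was 0.88 with the dendritic cell markers (rho 0.71; permutation p = 0.00927 and 0.0889, adjusted over 30 relations 0.139 and 0.381), 0.51 with the macrophage markers (permutation p = 0.243) and 0.45 with the endothelial markers (permutation p = 0.313). These 7 hold 5 Grhl3 KO and only 2 wild-type libraries, and 2 values centred on their own mean lie on a line by construction, so every r over these 7 libraries rests in part on that pair. The permutations also moved centred values across the groups without allowing for the means removed, so these p-values can be too small. The genes most like Dnase1l3 in this within-group variation, among 12567 compared, were Slc6a17 (r = 0.93), Kcnk6 (r = 0.91) and Fam89a (r = 0.90), a description over 10 libraries. All 3 were highest in wild-type library 1561.

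Dnase1l2 and Trex2 are the members tied to keratinocytes. DNase1L2 degrades nuclear DNA of cornifying cells, and in mice its loss leaves DNA in hair and nails. TREX2 is a 3′-to-5′ exonuclease expressed mainly in keratinocytes, and mice without it are more prone to carcinogen-induced skin tumours. Dnase1l2 (ENSMUSG00000024136) lies on chromosome 17, 24440081 to 24443105, and Trex2 (ENSMUSG00000031372) on chromosome X, 73433705 to 73435344, both on the minus strand and with no exon shared with another annotated gene.

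Dnase1l2 stood at 10.001, 8.42, 7.31, 6.26 and 18.7 CPM in Grhl3 KO libraries 1026, 1027, 1035, 1036 and 1043. It stood at 35.7, 9.06, 40.3, 17.03 and 12.001 CPM in wild-type libraries 1028, 1048, 1528, 1555 and 1561. Library 1043 was high for its group, and wild-type libraries 1028 and 1528 were above all others. The wild-type libraries 1048, 1555 and 1561 lay within the Grhl3 KO range. Means were 10.1 ± 5.002 CPM in Grhl3 KO mice, against 22.8 ± 14.3 CPM in wild-type mice (SD over 5 mice a group), with a log2 fold change of −1.18 (SE 0.45, 95% limits −2.17 to −0.19). The difference missed the threshold over all genes in edgeR's quasi-likelihood test (adjusted p = 0.617, unadjusted p = 0.0237). Without wild-type libraries 1528 and 1555 it was −0.91 (edgeR adjusted p = 0.926).

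Trex2 stood at 45.5, 73.5, 51.2, 60.6 and 130 CPM in Grhl3 KO libraries 1026, 1027, 1035, 1036 and 1043. It stood at 117, 43.2, 146, 179 and 130 CPM in wild-type libraries 1028, 1048, 1528, 1555 and 1561. As for Dnase1l2, library 1043 was the highest of Grhl3 KO and library 1048 the lowest of wild type, here the lowest of all 10. Means were 72.1 ± 33.9 CPM in Grhl3 KO mice, against 123 ± 50.2 CPM in wild-type mice (SD over 5 mice a group), with a log2 fold change of −0.77 (SE 0.37, 95% limits −1.58 to 0.04, edgeR adjusted p = 0.724). The value depended on the wild-type libraries with the distant numbers: it was −0.42 without libraries 1528 and 1555 (edgeR adjusted p = 0.956) and −0.15 without 1528, 1555 and 1561 (edgeR adjusted p = 0.976).

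Dnase1l1 and Dnase2a had close to the same level in every mouse. DNase1L1 is a membrane-anchored DNase known from muscle, and DNase II, encoded by Dnase2a, is the acid endonuclease of lysosomes. Dnase1l1 (ENSMUSG00000019088; chromosome X, 74273217 to 74282337, minus strand) stood at 22.6, 25.4, 20.8, 18.1 and 18.6 CPM in Grhl3 KO libraries 1026, 1027, 1035, 1036 and 1043, against 20.6, 23.2, 20.8, 22.1 and 17.5 CPM in wild-type libraries 1028, 1048, 1528, 1555 and 1561. The groups overlapped almost completely, with a log2 fold change of 0.02 (SE 0.12, 95% limits −0.25 to 0.28, edgeR adjusted p = 0.989). Its within-group r with the skeletal muscle list was −0.10 (rho −0.10; permutation p = 0.773 and 0.785, n = 10), and −0.20 within the 7 libraries numbered 1026 to 1048 (permutation p = 0.667).

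Dnase2a (ENSMUSG00000003812; chromosome 8, 84908560 to 84922915, plus strand) stood at 72.2, 69.7, 65.0, 72.6 and 62.3 CPM in Grhl3 KO libraries 1026, 1027, 1035, 1036 and 1043, against 68.7, 60.4, 72.7, 79.0 and 57.4 CPM in wild-type libraries 1028, 1048, 1528, 1555 and 1561. The Grhl3 KO values lay inside the wild-type range. The log2 fold change was 0.02 (SE 0.10, 95% limits −0.20 to 0.23, edgeR adjusted p = 0.989). Of its exon bases, 29.99% lie opposite exons of Mast1 on the other strand, which strand-aware counting keeps apart.

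Of the 4 detected members other than Dnase1l3, 0 passed an adjusted p of 0.05 in edgeR, DESeq2 or limma voom, beside 0.0801% of all 13731 genes tested in edgeR (0.0291% higher and 0.051% lower in Grhl3 KO), and 1 of them, Dnase1l2, had an unadjusted p under 0.05, beside 7.16% of all genes. The 95% limits of Dnase1l2 reach −2.17 and those of Trex2 −1.58, so their missed threshold does not show equal levels.

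**Figure D2:**
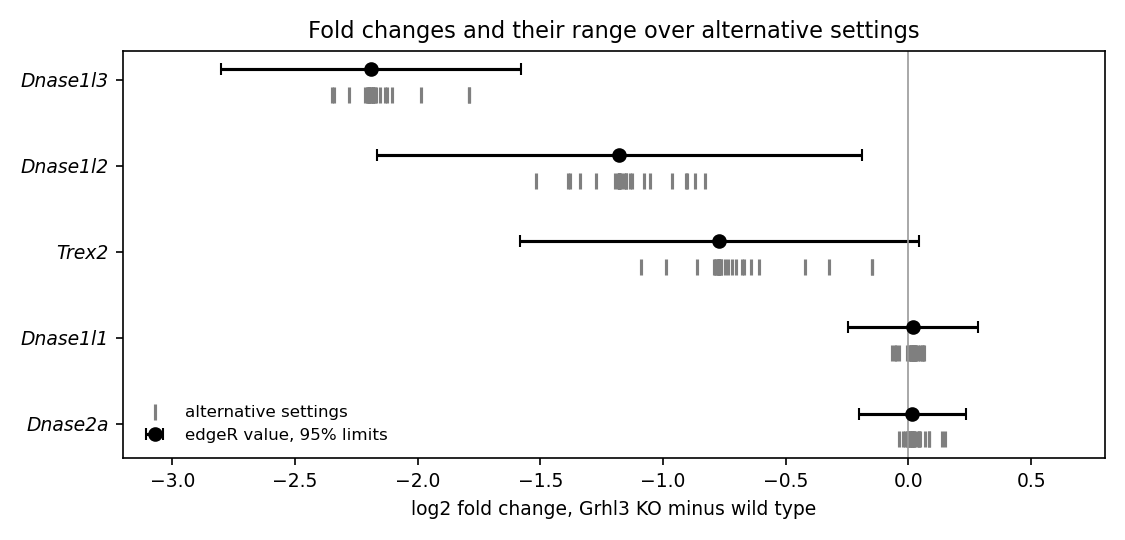
Log2 fold change of each detected gene, Grhl3 KO minus wild type (horizontal axis), with its edgeR value and 95% limits (black) and its value under each alternative setting (grey ticks). For Dnase1l3 the limits are a description and no test, because its lower counts in Grhl3 KO chose it. Dnase1l3 stays between −2.35 and −1.79, Dnase1l2 between −1.52 and −0.83 and Trex2 between −1.09 and −0.15, while Dnase1l1 and Dnase2a lie around 0.

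The detected members also differed in how much they varied among mice of the same group. The wild-type group holds both number series, so its spread includes any difference between them. The biological coefficient of variation, the spread between libraries beyond counting error as edgeR estimates it, was 0.483 for Dnase1l2 and 0.405 for Trex2, above 90.9% and 85.7% of all genes tested. It was 0.311 for Dnase1l3 at the 74.3 percentile, 0.159 for Dnase1l1 at the 30.3 percentile and 0.137 for Dnase2a at the 13.9 percentile. The lysosomal member and Dnase1l1 were thus among the steadier genes and both keratinocyte members among the more variable.

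Of the relations between members and lists, those of Dnase1l2 and Trex2 with cornification had the smallest p-values, and neither passed after adjustment. With group means removed, Dnase1l2 had an r of 0.84 with the mean of 23 cornification genes, such as those for loricrin and the transglutaminases (rho 0.81; permutation p = 0.00333 and 0.00719, n = 10). Adjusted over the 30 relations between 5 members and 6 lists, the values were 0.0999 for r and 0.216 for rho, and r was 0.62 without the 2 libraries farthest from the list's median. Trex2 had an r of 0.69 with the same list (rho 0.65; permutation p = 0.0237 and 0.0502, adjusted 0.355 and 0.752), and 0.66 without 2 libraries. Within the 7 libraries numbered 1026 to 1048, r was 0.86 for Dnase1l2 and 0.94 for Trex2 (permutation p = 0.0157 and 0.00175, adjusted 0.157 and 0.0525); the other number series holds 3 libraries, too few for a value. Dnase1l3 had an r of 0.10 with the list (rho 0.03; permutation p = 0.778 and 0.946), and 0.66 within those 7 libraries (permutation p = 0.115).

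In all, 2 of the 30 relations had an unadjusted permutation p under 0.05 for r and 0 an adjusted one. Dnase2a had an r of 0.40 with its own compartment, the lysosome list (rho 0.48; permutation p = 0.256 and 0.165), with −0.02 without 2 libraries and 0.52 within the 7 libraries (permutation p = 0.224). Between members, the r of Dnase1l2 with Trex2 was 0.62 (rho 0.50; permutation p = 0.0530 and 0.143, adjusted over 10 pairs 0.530 and 0.762) and turned to −0.24 without the 2 libraries farthest from the Trex2 median, so it rests on those libraries; within the 7 libraries it was 0.87 (permutation p = 0.016, adjusted 0.16).

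**Figure D3:**
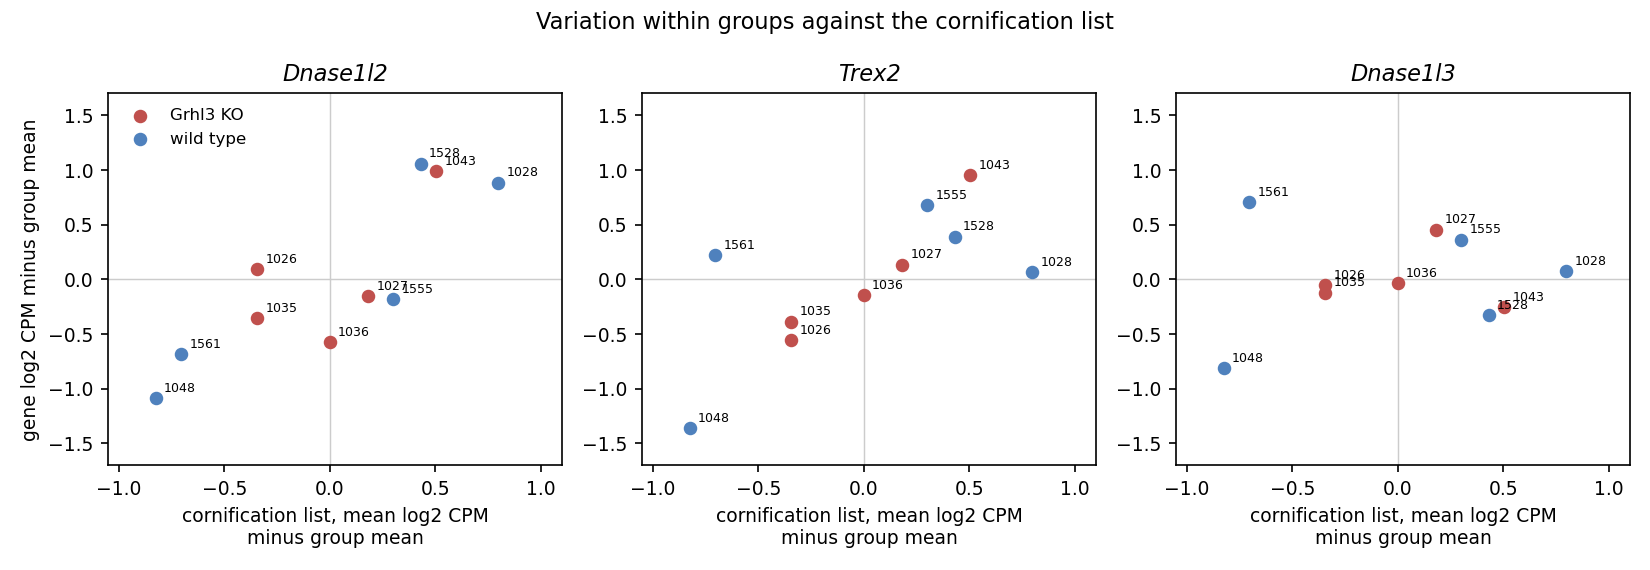
Log2 CPM of Dnase1l2, Trex2 and Dnase1l3 (vertical axes) against the mean log2 CPM of the cornification list (horizontal axes), each minus its group mean, in Grhl3 KO (red) and wild-type (blue) libraries named by number. Points rise to the right for Dnase1l2 (r = 0.84) and Trex2 (r = 0.69) and much less so for Dnase1l3 (r = 0.10).

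The genes most like Dnase1l2 within the groups were Xkrx (r = 0.98), Anxa9 (r = 0.97) and Fetub (r = 0.97), and those most like Trex2 were Avil (r = 0.98), Nipal4 (r = 0.97) and Creb3l3 (r = 0.96), over 10 libraries and as a description. Nipal4 takes part in the making of the epidermal lipid barrier. Dnase1l2 was highest in wild-type library 1528 and lowest in Grhl3 KO library 1036; Xkrx was highest in wild-type library 1028 and lowest in Grhl3 KO library 1036, and Anxa9 and Fetub were highest in wild-type library 1528 and lowest in wild-type library 1048. Dnase1l1 was most like Pi4k2b (r = 0.94), and Dnase2a most like Tmem66 (r = 0.93).

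Most cornification genes had lower fitted levels in Grhl3 KO, while the only one past the threshold in edgeR was higher. Of 23 tested, 6 had higher and 17 lower fitted levels in Grhl3 KO, with a median log2 fold change of −0.33 against −0.00 over all genes tested; 11 had an unadjusted p under 0.05, beside 7.16% of all genes. EdgeR called 1 of them, DESeq2 3 and limma voom 0, beside 11, 118 and 1 of all 13731 genes. Krt1, a keratin of cornifying epidermis, was the gene called by edgeR, at 200.3 ± 97.7 CPM in Grhl3 KO mice, against 24.2 ± 11.2 CPM in wild-type mice (log2 fold change 3.05, edgeR adjusted p = 0.0358). EdgeR called no gene higher in Grhl3 KO, and so not Krt1, without wild-type libraries 1528 and 1555 or without those and 1561. The same held with number series or Y-linked genes as a term, and without library 1027, 1036, 1043, 1528 or 1555 alone. Hrnr, encoding hornerin, a filaggrin-like protein, had the next smallest p, with 1.07 to 4.40 CPM in Grhl3 KO mice, against 6.74 to 145 CPM in wild-type mice, groups without overlap (log2 fold change −4.19, SE 0.90, edgeR adjusted p = 0.206). Sbsn, encoding suprabasin, had −1.06 and Sprr1b, an envelope precursor gene, −1.09 (edgeR adjusted p = 0.426 and 0.478). With the list's mean as a covariate, added after the data were seen, the log2 fold change was −0.83 for Dnase1l2 and −0.68 for Trex2. The edgeR adjusted p was 0.328 and 0.546. The unadjusted edgeR p was 0.00936 and 0.041, against 0.0237 and 0.0614 without the covariate. For Dnase1l3 the log2 fold change with it was −2.19. The part of cornification in these differences was not tested beyond this.

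Levels were scaled per kb of merged exons to set genes side by side, as far as the annotated lengths hold. On this scale Trex2 was the most abundant member. It had 70.9 ± 33.3 CPM per kb in Grhl3 KO mice, against 121 ± 49.4 in wild-type mice (SD over 5 mice a group). Dnase2a followed with 12.7 ± 0.842 CPM per kb in Grhl3 KO mice, against 12.5 ± 1.64 in wild-type mice, then Dnase1l1 with 9.94 ± 1.41 CPM per kb in Grhl3 KO mice, against 9.82 ± 1.01 in wild-type mice. Dnase1l2 had 4.36 ± 2.15 CPM per kb in Grhl3 KO mice, against 9.81 ± 6.13 in wild-type mice, and Dnase1l3 had 0.732 ± 0.152 in Grhl3 KO mice, against 3.35 ± 1.31 in wild-type mice.

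The order among the other 4 genes was not used to choose them, whereas the low place of Dnase1l3 rests in part on the Grhl3 KO values that chose it. Trex2 exceeded Dnase2a in 10 of 10 libraries, on average 6.76-fold, and Dnase2a exceeded Dnase1l1 in 10 of 10, on average 1.28-fold. The exact two-sided sign-flip permutation p was 0.00195 for each, the smallest possible, and 0.0026 adjusted over 4 neighbouring pairs. Such a p-value speaks only for agreement over the libraries. Gene lengths are the same in every library, so an error in them does not enter it. With the longest transcript as length, the order of the genes was the same. Dnase1l1 exceeded Dnase1l2 in 8 of 10 libraries, on average 1.701-fold (exact permutation p = 0.041, adjusted 0.041); the exceptions were wild-type libraries 1028 and 1528. This step passed in 3 of 10 cases when 1 library was left out, without Grhl3 KO library 1043 or wild-type library 1028 or 1528, and its adjusted p then ran from 0.0195 to 0.082 over all 10 cases. As a description without a test, Dnase1l2 lay above Dnase1l3 in 10 of 10 libraries, but the genes were nearly level in wild-type library 1561, at 5.15 CPM per kb for Dnase1l2 and 5.13 for Dnase1l3.

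As a share of the length-scaled RNA of the 5 detected genes, Trex2 took a median of 70.1% in Grhl3 KO (60.6% to 81.5%) and 76.9% in wild type (60.5% to 82.8%). Dnase1l3 took 0.871% in Grhl3 KO (0.385% to 0.977%) and 2.12% in wild type (1.34% to 3.27%).

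**Figure D4:**
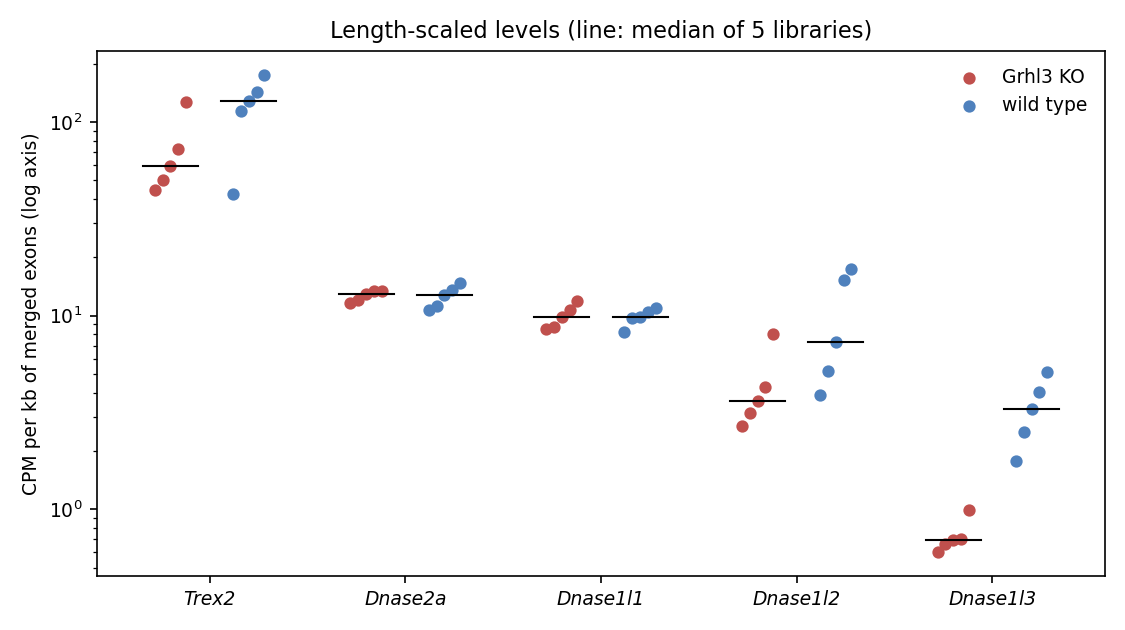
CPM per kb of merged exons on a log axis for the 5 detected genes in order of their median over 10 libraries, with Grhl3 KO (red) left of wild type (blue) and a line at each group's median. Trex2 lies above the other 4 genes in every library, Dnase2a and Dnase1l1 form narrow bands near 13 and 9.8, and Dnase1l2 spans 2.69 to 17.3.

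Dnase1, which encodes the major secreted DNase of saliva, pancreas and urine, had 0 counts in all 10 libraries. It (ENSMUSG00000005980) lies on chromosome 16, 4036942 to 4040024 on the plus strand, and none of its exons overlaps another gene's on the same strand. A count of 0 allows up to 3 counts, or 0.0867 to 0.189 CPM in Grhl3 KO mice, against 0.141 to 0.162 CPM in wild-type mice, for counting error only. Markers of mucous and salivary glands were low too: of 13 in the table, 6 were at 0 in every library (Smgc, Prol1, Dcpp1, Dcpp2, Dcpp3 and Bpifa2), and the list summed to 6.04 to 8.90 CPM in Grhl3 KO mice, against 3.95 to 18.3 CPM in wild-type mice. Of the 4 tested, 3 had higher fitted levels in Grhl3 KO and 0 were called by edgeR, DESeq2 or limma voom or at an unadjusted p under 0.05.

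Trex1, the exonuclease whose loss sets off interferon through cGAS and STING, was also listed at 0 in all 10 libraries, but here the 0 cannot be read as missing RNA. How reads on several genes were counted is not stated, and its part in the 0 was not tested. Trex1 (ENSMUSG00000049734; chromosome 9, 109057933 to 109059734, minus strand) has 1147 merged exon bases in GENCODE M21, and 100% of them lie inside exons of Atrip on the same strand. The start of its coding sequence, shown because it is shared letter for letter with 3 of the 9 annotated Atrip transcripts, lies at chr9:109058862-109058921 in GRCm38 (minus strand, start codon in capitals).
Trex1: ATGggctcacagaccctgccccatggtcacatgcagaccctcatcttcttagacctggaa
The whole coding sequence of 942 bases is contained in 2 of the 9 Atrip transcripts. A read from this stretch matches both genes. Of the 48 genes in the table whose exons lie wholly inside another gene's on the same strand, 27, or 56.2%, stood at 0 in every library, against 18.04% of the other genes with an annotated position. Atrip itself, the partner of the ATR checkpoint kinase, stood at 12.3 ± 1.46 CPM in Grhl3 KO mice, against 12.2 ± 1.62 CPM in wild-type mice (SD over 5 mice a group; log2 fold change 0.01, edgeR adjusted p = 0.996); it is named here after its values were seen, and it does not stand for Trex1.

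The remaining nucleases listed, 29 tested genes that include those of DNA repair, replication, apoptosis, RNA-DNA hybrid removal and RNA breakdown, were close to balanced. Of these, 14 had higher and 15 lower fitted levels in Grhl3 KO. Their median log2 fold change was −0.00, the same to 2 decimals as over all genes tested. EdgeR, DESeq2 and limma voom called 0 of them. In edgeR 1, Tatdn1, had an unadjusted p under 0.05, beside 7.16% of all genes. Tatdn1, of the TatD nuclease family, stood at 14.4 ± 1.43 CPM in Grhl3 KO mice, against 17.4 ± 2.06 CPM in wild-type mice (log2 fold change −0.27, edgeR adjusted p = 0.674). Xrn1, the main cytoplasmic RNA exonuclease, had 0.34, and Dclre1b, the telomere-end nuclease Apollo, 0.23 (edgeR adjusted p = 0.701 and 0.757). Dnase2b, the lens paralogue of Dnase2a, averaged 0.026 CPM and was not tested.

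Genes that sense DNA showed 13 higher and 8 lower of 21 tested, with a median log2 fold change of 0.10. EdgeR, DESeq2 and limma voom called 0 of them. In edgeR 1 had an unadjusted p under 0.05, beside 7.16% of all genes. That 1 was Ifi204, an interferon-inducible DNA sensor, with 88.4 ± 17.9 CPM in Grhl3 KO mice, against 44.7 ± 19.6 CPM in wild-type mice (SD over 5 mice a group; log2 fold change 0.99, SE 0.29, edgeR adjusted p = 0.428). Trim56, which modifies cGAS and STING, had −0.29, Enpp1, which degrades the cGAS product, −0.56, and Unc93b1, the chaperone of TLR9, 0.26 (edgeR adjusted p from 0.72 to 0.795). Tlr9 itself averaged 0.52 CPM.

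Lysosomal genes, the company of Dnase2a, had 10 higher and 15 lower of 25 tested, with a median of −0.04. EdgeR and limma voom called 0 of them, and DESeq2 called 2, beside 118 of all 13731 genes. In edgeR 2 had an unadjusted p under 0.05, beside 7.16% of all genes. Smpd1, encoding acid sphingomyelinase, stood at 26.6 ± 3.76 CPM in Grhl3 KO mice, against 73.9 ± 26.2 CPM in wild-type mice (log2 fold change −1.48, SE 0.25, edgeR adjusted p = 0.0834). Lamp1, encoding a membrane protein of lysosomes, had 0.15 (edgeR adjusted p = 0.824), beside 0.02 for Dnase2a.

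Promoter windows of 250 bases before to 50 after the annotated start were at hand in RefSeq (GRCm38.p6) for 6 of the 7 genes, all but Dnase1l3. The grainyhead-like core AACCGGTT, which reads the same on both strands, was found in 0 of them and in 0.146% of the 32851 windows of all genes. Its relaxed form AACNNGTT was found once for Dnase1, at a single position inside both of its overlapping windows, and in 4.2% of all windows, and the AP-1 motif TGANTCA, sought on both strands, in 0 of the members' windows and 7.81% of all. A missing match says only that these letters are not in the window.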

How the data were processed

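The deposited table gives unnormalized counts, whole numbers, of 22740 protein-coding genes in 10 libraries. The authors used featureCounts and GRCm38, per the submitters' processing notes; its version, the aligner and the handling of reads on several genes are not given there. The file name calls the counts reverse-stranded. Columns were joined to sample titles by sample number; 0 other per-sample columns and 0 rows without a gene were found. Genes were kept with filterByExpr (minimum count 10, minimum total 15; 13731 genes), scaled by TMM and tested with edgeR 4.0.16 in R 4.3.3 (robust quasi-likelihood F-test, Benjamini-Hochberg over all genes, threshold 0.05). DESeq2 1.42.0, limma voom (limma 3.58.1), other scalings, filters, covariates and left-out libraries were alternatives. Log2 CPM carries a prior count of 2. Floors are 3 counts per library; limits are 95%. Correlations used group-centred log2 CPM and 100000 permutations. Values were permuted across both groups without allowing for the group means removed, so these p-values can be too small, most so over 7 libraries. Gene models and lengths are GENCODE M21 (GRCm38), which holds 21842 of the identifiers. Only the edgeR test was tried on simulated data.

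Members, lists and tests were chosen with earlier results of these data known. The genes named are the 7 members, up to 4 of smallest p per list among those described, and the 3 genes most alike in group-centred log2 CPM with a mean of at least 1 CPM, of which some are given. The correlations between members and 2 covariates (dendritic cell and cornification lists) were added after the data were seen. Some listed genes are not reported here.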

Additional observations from a re-analysis of the deposited data

Results flagged for a closer look

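In 1 case a library stood apart from its group by the size of its gap to the next: Grhl3 KO library 1027 held 5.12 CPM of Dnase1l3, while the remaining 4 of its group spanned 3.10 to 3.62 CPM, a gap of 0.742 of the group's range where Dixon's critical value for 5 samples is 0.71. Chance gives such a gap in about 1 in 20 groups, and 10 groups were looked at. Without that library the Dnase1l3 log2 fold change was −2.34.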

How the results depend on the processing

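Of the 4 detected members other than Dnase1l3, 0 passed in any of the 25 alternatives. Dnase1l3 kept its direction in all 25, from −2.35 to −1.79, with −1.98 to −2.35 when 1 library was left out. Its groups did not overlap, so leaving libraries out could not reverse it, and nothing is read from the kept direction. Dnase1l2 and Trex2 also kept their direction, from −1.52 to −0.83 and from −1.09 to −0.15. Around 0, Dnase1l1 changed sign in 5 alternatives, −0.0512 without wild-type libraries 1528, 1555 and 1561, −0.0527 with number series as a batch term and −0.0675 to 0.0622 with 1 library left out, and Dnase2a in 5 left-out cases, −0.0377 to 0.0674. Over all genes, 11 calls became 118 with DESeq2, 60 with the cornification covariate, 7 without a filter and 1 with limma voom, without wild-type libraries 1528 and 1555, without those and 1561, with number series as a batch term and with a Y-linked covariate; with 1 library left out the count ran from 1 to 16. Where 1 call was left, that gene was lower in Grhl3 KO. The cause of these changes in the count was not tested. The order of levels was the same in all 12 alternatives, with 3 or 4 of 4 steps past the threshold, the step to Dnase1l3, read as a description, included, and 0 list relations passed in any of 14. Scaling moved the median of all genes by at most 0.02. No paired analysis was possible because the sample numbers are not shared between the groups. Counts of 52 to 562 reads per library limit Dnase1l3.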
